A study of Mus musculus with 12 samples.

Results

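The genes described here encode the proteasome, the barrel-shaped protease complex that degrades ubiquitin-tagged proteins, together with its regulators. They were taken as every gene on the array whose symbol begins with Psm, one letter from a to g and a number, and that had a non-control probe, with symbols assigned through the RefSeq accession of each probe. This gave 50 of 18539 named genes. They comprised 14 subunits of the constitutive core, 3 immunoproteasome subunits (Psmb8, Psmb9 and Psmb10), 2 tissue-restricted core subunits (Psma8 and Psmb11), 20 genes of the regulatory particle (17 subunits and the assembly factors Psmd5, Psmd9 and Psmd10), 5 activators or inhibitors (Psme1 to Psme4 and Psmf1) and 4 assembly chaperones (Psmg1 to Psmg4). The pattern also caught Psmc3ip, a meiotic recombination factor, and Psme3ip1, a protein that binds an activator, neither of which is a subunit. Of the 50 genes, 49 were tested. Psmb11, the thymus-specific catalytic subunit, was not well above background on any array and was not tested.

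RNA came from the distal colon of female BALB/c mice, 5 to 7 weeks old at the start, and was sampled at day 100 in 4 groups of 3 arrays. The AOM group received azoxymethane (AOM), a colon carcinogen, at 10 mg/kg intraperitoneally in 6 weekly injections from the first day. The DSS group drank dextran sulfate sodium (DSS), which damages the colon lining and causes colitis, for 5 days of each 21-day cycle over 3 cycles that began on day 5. The AOM/DSS group received 1 injection of AOM at 12.5 mg/kg and the same DSS cycles, and carried tumours. The control group is labelled with neither agent. Epithelium was scraped with a slide from the control, AOM and DSS colons, whereas neoplasms were clipped out in the AOM/DSS group and kept in a different storage solution. Treatment, tumour tissue, sampling and storage therefore cannot be told apart in any comparison with AOM/DSS, and the AOM dose schedule also differed between AOM and AOM/DSS. The labels do not say whether replicates were separate mice, so p-values measure the spread between these samples only.

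The core proteasome is a stack of rings of alpha (Psma) and beta (Psmb) subunits, and proteolysis is carried out by Psmb5, Psmb6 and Psmb7. Interferon induces the alternative catalytic subunits Psmb8, Psmb9 and Psmb10, which replace Psmb5, Psmb6 and Psmb7 in newly made particles and alter the peptides available to MHC class I. The regulatory particle, with its ATPases (Psmc) and non-ATPase subunits (Psmd), recognises, unfolds and feeds substrates into the core. The transcription factor Nfe2l1 drives many subunit genes when proteasome capacity falls short.

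Levels are given as log2 signal relative to the 75th percentile of each array, so that 1 unit of difference is a 2-fold change. Levels of different probes are not comparable with each other. Where a gene had several probes the brightest was used. The tumour arrays were brighter, with an intensity of 1115 to 1185 at the 75th percentile, where the other 9 arrays had 393 to 694. Their share of probes well above background was 62.6% to 66.2%, against 52.0% to 59.3%. The epithelial markers (10 of 10 above background on every array) had median levels of 4.65 to 5.04 in AOM/DSS and 6.58 to 7.61 in control. In AOM/DSS against control 8 of 10 fell (80%, beside 34.7% of all genes called in either direction). Of 5 neutrophil markers, 5 were well above background on each tumour array and 1, S100a9, on each control array. S100a9 rose by 8.59 in AOM/DSS (limma adjusted p = 5.5e-05). In such bulk tissue fewer cells of a type and less RNA per cell cannot be told apart. DSS replicate 1 and control replicate 3 had the highest median levels of exocrine pancreas genes, 3.71 and 6.23. Control replicates 1 and 2 had 1.64 and -0.64, also above AOM (-3.76 to -3.43), AOM/DSS (-5.07 to -3.30) and DSS replicates 2 and 3 (-3.80 and -2.58). Across all genes DSS replicate 1 correlated best with control replicate 3 (Pearson r = 0.969, across genes). Values without DSS replicate 1, or without it and control replicate 3, are given beside some results they change. Such fits keep control replicates 1 and 2 and so do not remove the pancreas signal from the control group.

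The following sequences are promoter windows of some members described below, and show which contain letters of elements known for the Nfe2l1 and interferon routes. They run from 250 bases before to 50 bases after the annotated start (RefSeq, GRCm38.p6), and were chosen after values and matches had been seen. How many of the windows shown hold a match therefore carries no weight. Capitals mark a match, on either strand, to TGACNNNGC (the core of the antioxidant response element, which Nfe2l1 binds) or TTCNNNGAA (the gamma-activated site of interferon gamma signalling). Psmb5 lies at chr14:54617946-54618245 on the minus strand, Psmb8 at chr17:34197945-34198244 on the plus strand, Psmb10 at chr8:105938343-105938642 on the minus strand, Psmc6 at chr14:45329574-45329873 on the plus strand and Psme4 at chr11:30771525-30771824 on the plus strand.
Psmb5: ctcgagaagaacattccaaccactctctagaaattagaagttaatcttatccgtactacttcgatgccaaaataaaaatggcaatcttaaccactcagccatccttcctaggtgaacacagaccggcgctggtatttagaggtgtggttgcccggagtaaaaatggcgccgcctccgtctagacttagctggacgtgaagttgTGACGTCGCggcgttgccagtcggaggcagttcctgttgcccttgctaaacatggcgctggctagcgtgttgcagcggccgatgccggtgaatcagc
Psmb8: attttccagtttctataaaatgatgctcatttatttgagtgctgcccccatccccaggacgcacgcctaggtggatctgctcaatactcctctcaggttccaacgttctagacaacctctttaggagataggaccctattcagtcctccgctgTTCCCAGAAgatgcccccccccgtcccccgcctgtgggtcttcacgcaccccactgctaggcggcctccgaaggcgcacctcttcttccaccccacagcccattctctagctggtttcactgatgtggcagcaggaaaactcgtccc
Psmb10: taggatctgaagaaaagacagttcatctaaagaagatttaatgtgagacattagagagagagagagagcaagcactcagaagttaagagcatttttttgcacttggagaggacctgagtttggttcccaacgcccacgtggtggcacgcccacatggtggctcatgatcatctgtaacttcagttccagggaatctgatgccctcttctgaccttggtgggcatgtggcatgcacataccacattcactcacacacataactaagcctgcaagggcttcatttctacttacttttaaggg
Psmc6: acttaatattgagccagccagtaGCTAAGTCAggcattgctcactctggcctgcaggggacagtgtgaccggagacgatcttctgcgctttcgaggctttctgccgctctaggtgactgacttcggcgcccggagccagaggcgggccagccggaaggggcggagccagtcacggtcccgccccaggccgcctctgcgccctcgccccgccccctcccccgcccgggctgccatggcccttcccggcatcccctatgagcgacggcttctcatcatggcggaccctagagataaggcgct
Psme4: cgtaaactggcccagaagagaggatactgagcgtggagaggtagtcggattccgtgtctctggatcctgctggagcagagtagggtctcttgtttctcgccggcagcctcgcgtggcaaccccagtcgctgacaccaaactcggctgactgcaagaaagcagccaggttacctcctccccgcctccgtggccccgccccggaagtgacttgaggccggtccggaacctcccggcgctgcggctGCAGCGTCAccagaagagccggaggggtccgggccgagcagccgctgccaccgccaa

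A window was found for 42 of the 50 members, not including Psmb7, and 8 letter patterns were counted in both directions. TGACNNNGC occurred in 6 of 42 members (14.3%) and in 12.4% of all 32851 windows. The 6 were Psmb5, Psmb6, Psmc6, Psmd9, Psmd12 and Psme4. The core of the interferon-stimulated response element, GAAA repeated after any 2 bases, occurred in 5 of 42 members (11.9%: Psmb3, Psmd4, Psmd9, Psme1 and Psmg4) and 3.44% of windows. TTCNNNGAA occurred in 3 of 42 members (7.14%: Psmb8, Psmd2 and Psmg1) and 8.3% of windows. The windows of Psmb9 and Psmb10 held none of these 3 patterns. Of the other patterns, the GC box GGGCGG was in 24 of 42 members (57.1%) and 35.7% of windows, CCAAT in 16 (38.1%) and 37.4%, an NF-kB pattern of GGGA and CC around any 4 bases in 11 (26.2%) and 20.7%, GAANNTTC, a heat shock pattern, in 3 (7.14%) and 7.86%, and the cAMP response element TGACGTCA in 0 and 1.79%. The 42 members had 46 windows, and a member was counted if any of its windows matched. The shares of members and of windows are therefore counted in different units. A match describes letters only, and the shares were not tested.

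**Figure D1:**
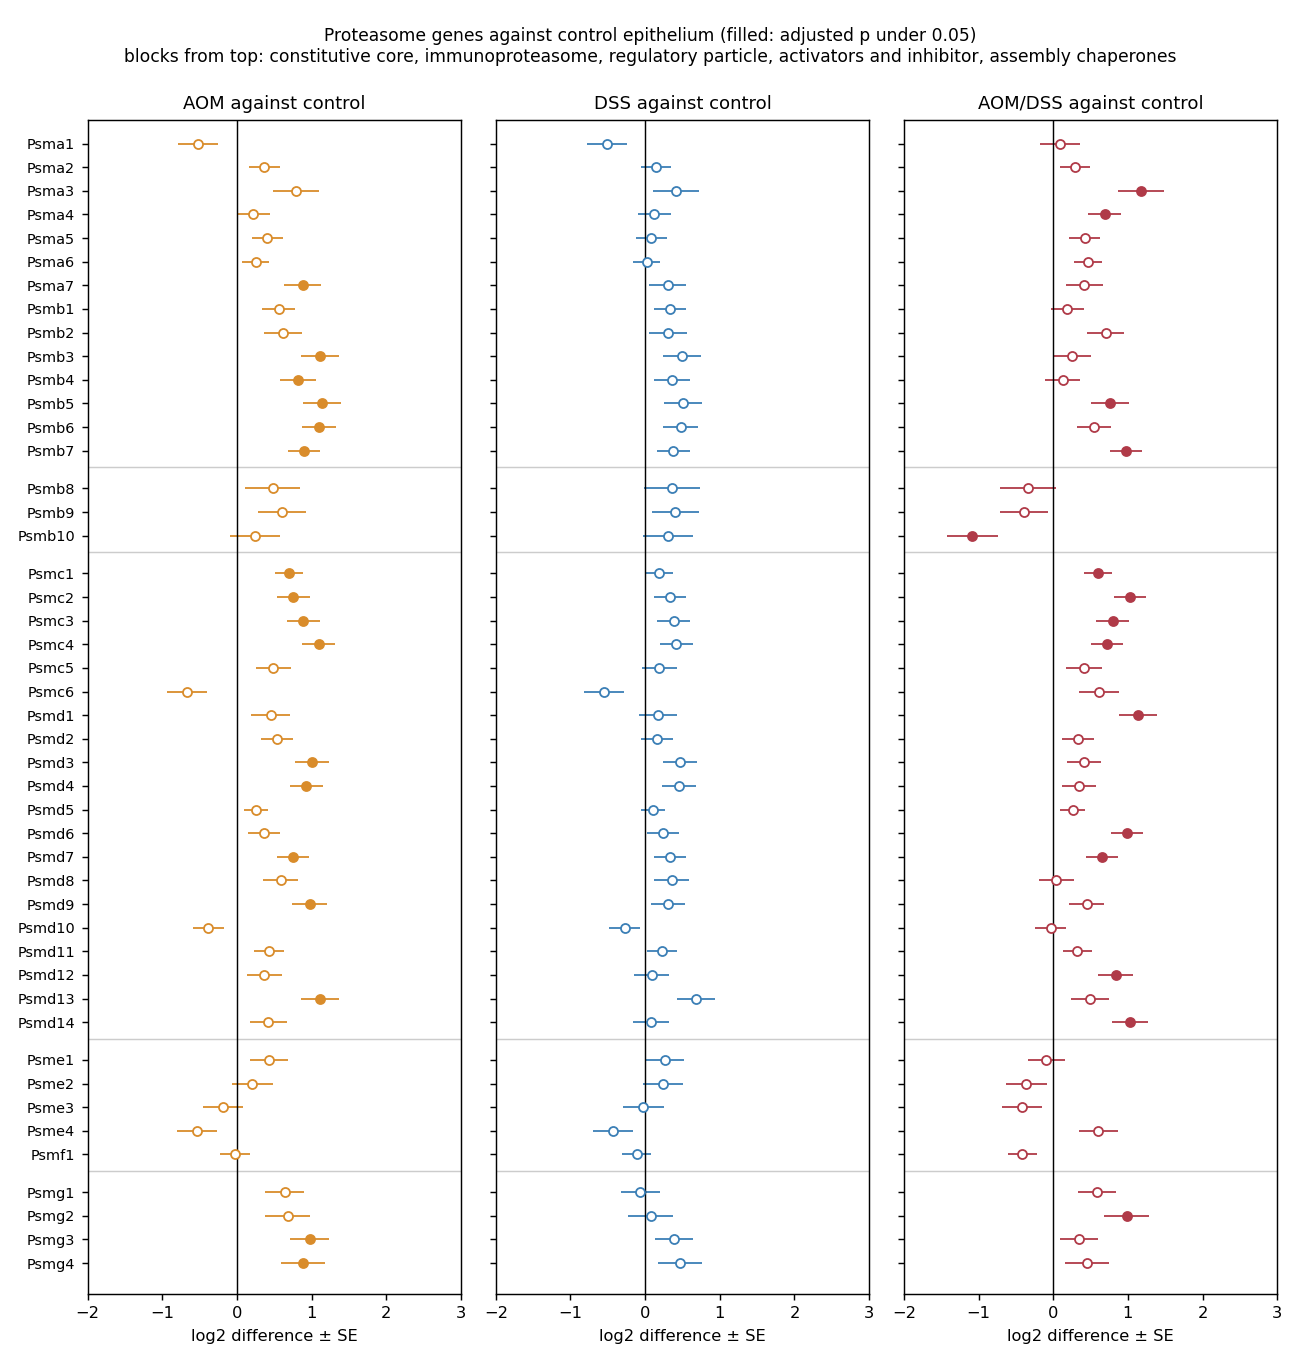
Log2 difference from control, with its standard error, for the tested core, regulatory particle, activator, inhibitor and chaperone genes other than Psma8 (rows, in blocks by role) in the AOM, DSS and AOM/DSS groups (panels), 3 arrays each. Filled points have a limma adjusted p under 0.05, and most points lie to the right of 0, while Psmb10 in AOM/DSS lies at -1.08.

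The comparison of tumours with control epithelium asked how the proteasome genes differed in neoplasms. In AOM/DSS, 16 of 49 tested members were called higher and 1 lower, against 34.7% of all 18957 genes tested called in either direction (17.2% higher, 17.5% lower; limma with Benjamini-Hochberg adjustment, adjusted p under 0.05). The 17 members called are 34.7% of 49 as well, so with this scaling the share called was at the background. Of the 17, 16 were higher. The median log2 difference over the members was 0.45, and 0.03 over all genes. Of the members, 9 of 20 regulatory particle genes, 4 of 14 constitutive core subunits, 1 of 4 chaperones and Psmc3ip rose, and Psmb10 fell. The sixteenth gene called higher was Psma8, which was above background in AOM/DSS only, and 15 of 48 members rose without it.

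After AOM alone, 18 of 49 members rose and 0 fell, against 32.4% of all genes called (14.8% higher, 17.6% lower). The median difference was 0.56 over the members and -0.01 over all genes. The 18 were 9 of 20 regulatory particle genes, Psmd9 among them, 6 of 14 core subunits, Psmg3, Psmg4 and Psmc3ip. Both comparisons used the same 3 control arrays. Over the 4 groups together, 25 of 49 members differed by limma's F test, against 52.7% of all genes. Psma8, above background in AOM/DSS only, is among the 25, and its call carries no weight.

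DSS alone gave no call over all 3 arrays (0 of 49 in limma, against 0.327% of all genes, 0.164% in each direction). At an unadjusted limma p under 0.05 there was 1 of 49 members, beside 4002 of 18957 genes. The median difference of the members was 0.30, against -0.02 over all genes. The DSS arrays were not alike. Psmb5 measured 3.40 in DSS replicate 1, just under the lowest control value of 3.43, and 4.42 and 4.26 in replicates 2 and 3. Without DSS replicate 1, 9 members rose and 1 fell against control, beside 16.8% of 18943 genes called (5.33% higher, 11.5% lower). The 9 were Psmb3, Psmb4, Psmb5, Psmb6, Psmc4, Psmd3, Psmd4, Psmd13 and Psmg3, with log2 differences of 0.62 to 0.88 (Psmb4 lowest, Psmd13 highest, limma adjusted p = 0.016 to 0.049), and Psmc6 fell by 0.82 (adjusted p = 0.041). With both pancreas-rich arrays left out, which was decided after the values had been seen, 4 members were called in DSS, beside 22.6% of all genes. DSS against AOM gave 0 calls with and without DSS replicate 1 (0.0106% of all genes with all arrays). With all arrays 13 of 49 members had an unadjusted limma p under 0.05, beside 2812 of 18957 genes.

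The counts leaned on single arrays and on the scaling. In AOM/DSS against control, 10 members were called without AOM/DSS replicate 2, 8 without AOM/DSS replicate 3, 10 without control replicate 1 and 9 without control replicate 2. In AOM against control, 5 were called without AOM replicate 2, 11 without AOM replicate 3, 10 without control replicate 1 and 9 without control replicate 2. Counts over all genes in these refits are not given here. The drops are therefore not shown to be particular to the proteasome genes. Scaling to the array median left 7 calls in AOM/DSS against control (6 higher, 1 lower), and quantile normalization gave 33, all higher, as did the deposited series matrix values. Among all genes, 6581 were called with the 75th percentile and 5810 under median scaling. Quantile normalization called 7001 genes and the series matrix values 6998. The median over all genes moved to -0.12 under median scaling in this comparison. Of all genes called, 49.7% were higher in AOM/DSS than control with the 75th percentile, 39.1% under median scaling and 54.7% under quantile normalization. AOM against control gave 17 to 19 calls under these settings and normexp correction, while the share of called genes that were higher went from 45.7% to 53.7% under median scaling and 56.9% under normexp correction. The genes called in this comparison were 6144 with the 75th percentile, 5579 under median scaling and 1861 under normexp correction.

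**Figure D2:**
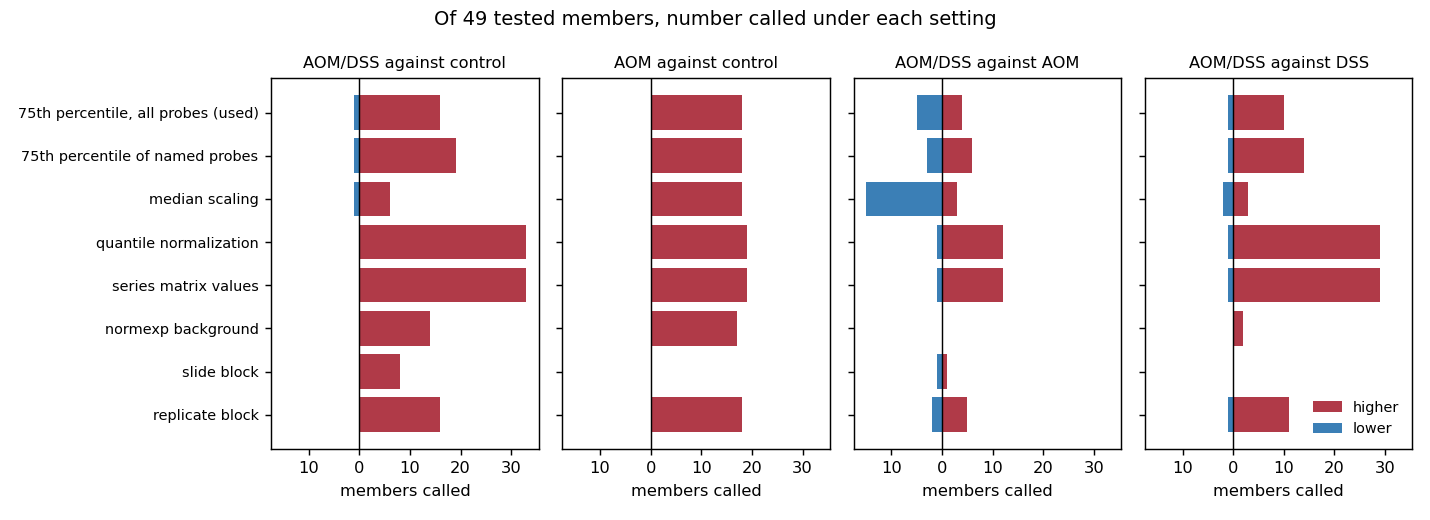
Number of the 49 tested members called higher (red, right of 0) or lower (blue, left of 0) in 4 comparisons (panels) under each way of scaling or blocking (rows). AOM against control gave 17 to 19 calls under all settings drawn but the slide block, which gave 0, whereas AOM/DSS against control ranged from 7 under median scaling to 33 under quantile normalization. Beside these 7 and 33, 5810 and 7001 of all genes were called.

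The arrays lay on 3 slides of 4 arrays, and slide and group overlapped. AOM/DSS replicate 3 shared a slide with the 3 controls, AOM/DSS replicates 1 and 2 with AOM replicates 1 and 2, and AOM replicate 3 with the DSS arrays. With the slide as a block, 8 members were called in AOM/DSS against control, but the estimates then rest on 1 tumour array, replicate 3, against the 3 controls on its slide. Within that slide the log2 differences were 1.68 for Psma3, 1.44 for Psmd1, 1.42 for Psmd14, 1.25 for Psmc2, 1.23 for Psmd6 and 1.21 for Psmd12. Replicate 3 was the highest AOM/DSS array for each of these genes. AOM and control shared no slide, and 0 members were called there with the block.

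Among the constitutive catalytic subunits, Psmb5, which carries the chymotrypsin-like activity, measured 3.44, 3.67 and 3.43 in control, 4.59, 4.79 and 4.57 in AOM, 3.40, 4.42 and 4.26 in DSS, and 4.22, 4.25 and 4.35 in AOM/DSS. Every AOM and AOM/DSS array lay above every control array. Psmb5 rose by 1.13 ± 0.25 (SE) after AOM (2.19-fold, limma adjusted p = 0.013) and by 0.76 ± 0.25 in AOM/DSS (1.69-fold, adjusted p = 0.04). The AOM/DSS call is a narrow one. It was lost with any one of 8 arrays left out, with adjusted p from 0.055 to 0.11, and under median scaling (0.61, adjusted p = 0.20).

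Psmb6, the caspase-like subunit, measured 4.10, 4.35 and 4.02 in control and 5.22, 5.37 and 5.16 in AOM, and rose by 1.10 ± 0.23 (adjusted p = 0.011). This call held with any single array left out. In AOM/DSS the values were 4.62, 4.61 and 4.87, a difference of 0.54 ± 0.23 with an adjusted p of 0.09. Psmb7, the trypsin-like subunit, measured 2.13, 2.43 and 2.45 in control, 3.04, 3.37 and 3.31 in AOM, 2.37, 2.97 and 2.81 in DSS, and 3.30, 3.13 and 3.49 in AOM/DSS. It rose in AOM/DSS by 0.97 ± 0.22 (1.96-fold, adjusted p = 0.0063) and after AOM by 0.90 ± 0.22 (1.87-fold, adjusted p = 0.015). The AOM/DSS call was kept with any single array left out, and had an adjusted p of 0.057 under median scaling and of 0.056 with the slide as a block.

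Of the inducible subunits, with all arrays, Psmb10 passed in 3 comparisons, Psmb9 in 1 and Psmb8 in none. Psmb10, which takes the place of Psmb7, measured 7.01, 6.31 and 5.92 in control, 7.00, 6.46 and 6.50 in AOM, 6.30, 6.84 and 7.02 in DSS, and 4.92, 5.26 and 5.80 in AOM/DSS. All 3 AOM/DSS values lay under every other array. Psmb10 fell in AOM/DSS against control (-1.08 ± 0.34, adjusted p = 0.03), against AOM (-1.32 ± 0.34, adjusted p = 0.015) and against DSS (-1.39 ± 0.34, adjusted p = 0.012). The difference from control had adjusted p values of 0.06 to 0.12 without AOM/DSS replicate 1 or 2 or control replicate 1 or 2, of 0.11 under quantile normalization (-0.54), and of 0.43 with the slide as a block (-0.61 within the shared slide). The difference from AOM was -1.64 within the slide they shared (adjusted p = 0.039 with the block), had adjusted p values of 0.052 without AOM replicate 1 and 0.062 without AOM/DSS replicate 1, and was -0.72 under quantile normalization (adjusted p = 0.046). Under normexp correction the differences were -0.48, -1.25 and -0.94 against control, AOM and DSS (adjusted p = 0.33, 0.057 and 0.11), and without DSS replicate 3 the difference from DSS had an adjusted p of 0.052.

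Psmb9, the counterpart of Psmb6, measured 4.78, 4.03 and 4.15 in control, 5.47, 4.63 and 4.65 in AOM, 4.35, 4.94 and 4.89 in DSS, and 3.51, 4.08 and 4.21 in AOM/DSS. The AOM/DSS values lay below every AOM and DSS value and overlapped the control values. Psmb9 fell against AOM (-0.99 ± 0.32, adjusted p = 0.035), a call lost without AOM replicate 1 (-0.71, adjusted p = 0.12), AOM/DSS replicate 1 (-0.78, adjusted p = 0.12) or AOM/DSS replicate 2 (-1.06, adjusted p = 0.065), and under quantile normalization (-0.53, adjusted p = 0.11). The Psmb9 difference from DSS was -0.79 with all arrays, not called. Without DSS replicate 1 it was -0.98 and was called (limma adjusted p = 0.039). Psmb8, the counterpart of Psmb5, measured 5.15, 4.33 and 4.38 in control, 5.75, 4.62 and 4.93 in AOM, 4.73, 4.98 and 5.25 in DSS, and 3.65, 4.62 and 4.60 in AOM/DSS. Its difference from AOM was -0.81 ± 0.37 (adjusted p = 0.11). Against control, Psmb8 differed by -0.33 and Psmb9 by -0.39, and both signs turned under quantile normalization (0.09 and 0.02), the series matrix values and normexp background correction.

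**Figure D3:**
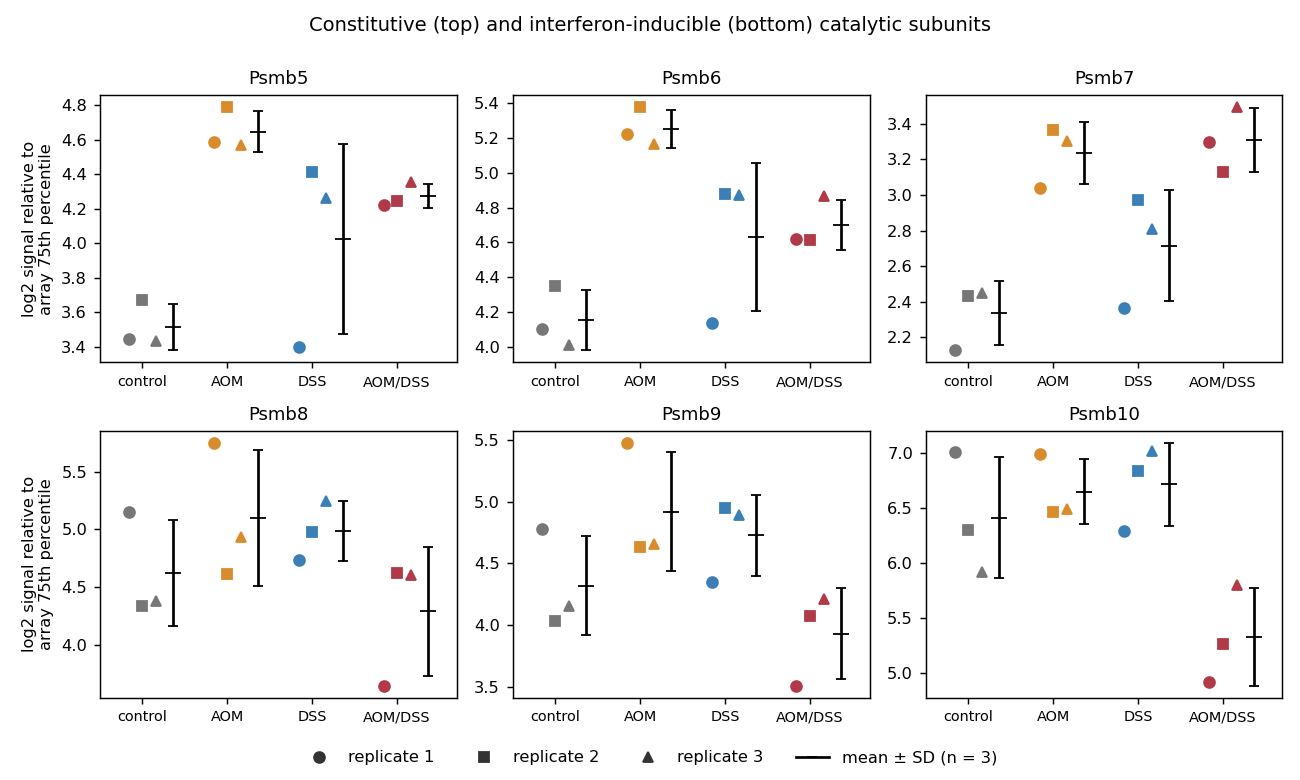
Log2 signal relative to the array's 75th percentile (vertical axis, a separate scale in each panel) of the constitutive catalytic subunits Psmb5 to Psmb7 (top) and their inducible counterparts Psmb8 to Psmb10 (bottom) on each array, by group, with mean and SD of 3 arrays. For Psmb7 every AOM/DSS array lies above every control array, and for Psmb10 every AOM/DSS array lies below every other array.

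The ratio of an inducible subunit to its constitutive counterpart within an array does not depend on a scaling constant. Set to a control mean of 0, the log2 ratio of Psmb10 over Psmb7 was 0.81, -0.20 and -0.60 in the controls, -0.12, -0.98 and -0.89 in AOM, -0.15, -0.21 and 0.14 in DSS, and -2.46, -1.94 and -1.76 in AOM/DSS. The AOM/DSS arrays lay below all others, with a mean of -2.06 ± 0.36 (SD, n = 3). This is a ratio 4.16-fold lower than in control and 2.63-fold lower than in AOM. The difference from control was -1.80 under quantile normalization and -1.90 under normexp correction.

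For Psmb8 over Psmb5 the AOM/DSS values were -1.69, -0.74 and -0.86 and the controls 0.60, -0.45 and -0.16. For Psmb9 over Psmb6 they were -1.27, -0.70 and -0.82 against 0.51, -0.48 and -0.03. In both pairs the AOM/DSS arrays lay below every control array. The AOM arrays lay between -1.28 and 0.06 for Psmb8 over Psmb5 and between -0.91 and 0.09 for Psmb9 over Psmb6, overlapping both control and AOM/DSS. The DSS means were -0.15 ± 0.39 and -0.07 ± 0.10 (SD, n = 3). These ratios were formed after the values were known and carry no p-value; 3 arrays against 3 cannot give an exact permutation p below 0.10.

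**Figure D4:**
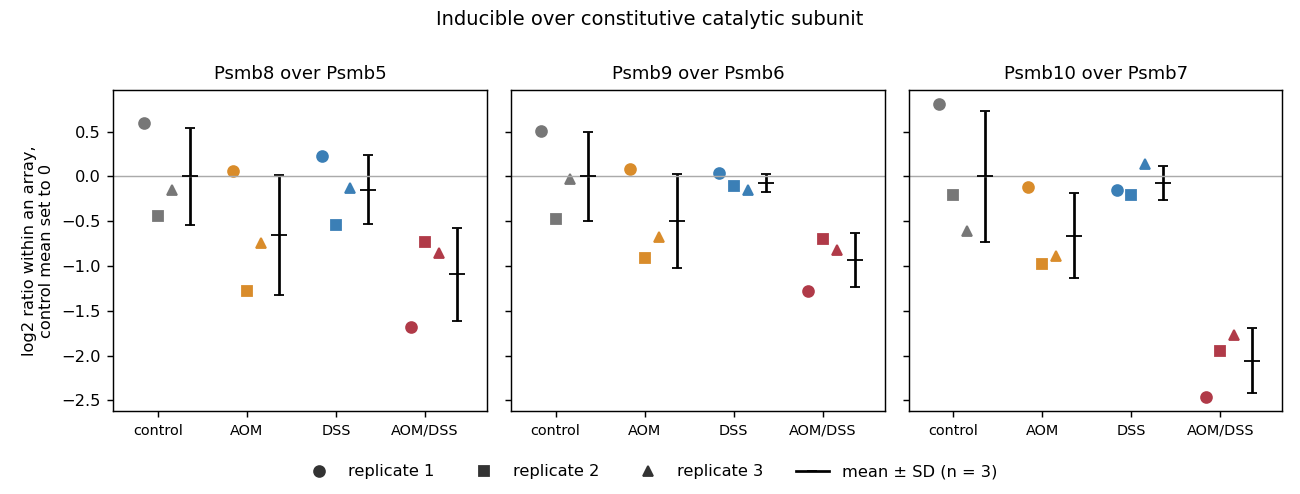
Log2 ratio of an inducible over its constitutive catalytic subunit on each array (vertical axis, control mean set to 0), by group, with mean and SD of 3 arrays. In each of the 3 pairs the AOM/DSS arrays lie below the control arrays, farthest for Psmb10 over Psmb7 with a mean of -2.06.

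Of 17 tested genes of antigen processing and interferon response, 0 rose and 3 fell in AOM/DSS against control, 17.6% called beside 34.7% of all genes (Ifngr1, an interferon gamma receptor chain, -1.65; the class I heavy chain H2-D1, -1.15; and the peptide transporter subunit Tap2, -0.89), with a median of -0.62. Against AOM 4 of 17 fell (23.5%, beside 37.1% of all genes), among them Irf8, Tap1 and H2-D1, and against DSS 6 fell and 1 rose (41.2%, beside 35.9%). Tap1, the partner of Tap2, rose after AOM (1.10, adjusted p = 0.016) and differed by -0.04 in AOM/DSS against control. The regulators Irf1 (-0.66) and Nlrc5 (0.37) and the class I light chain B2m (-0.67) had adjusted p values of 0.097 to 0.59 in AOM/DSS against control. Leukocyte markers moved both ways against control, where 2 of 13 rose and 3 fell in AOM/DSS (38.5% called, beside 34.7% of all genes). Against AOM 7 of 13 fell (53.8%, beside 37.1%) and against DSS 8 of 13 (61.5%, beside 35.9%). The AOM/DSS arrays had median levels of -1.73 to -0.46, the AOM arrays -0.89 to 2.44 and the control arrays -1.92 to 0.34, and the B-cell receptor gene Cd79b differed by -4.41 from AOM. AOM replicate 1 had the highest leukocyte median, 2.44, and the highest Psmb8 and Psmb9 values. Its Psmb10 value of 7.00 was the highest in AOM, just under 7.02 in DSS replicate 3 and 7.01 in control replicate 1. Control replicate 1, with a leukocyte median of -0.30, had the highest control values of Psmb8, Psmb9 and Psmb10. The part of leukocyte RNA in the immunoproteasome differences was not tested.

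Of the other core subunits, Psma3 rose in AOM/DSS by 1.17 ± 0.31 (2.26-fold, adjusted p = 0.014) and Psma4 by 0.69 ± 0.22 (adjusted p = 0.034). Psma3 measured 2.27, 2.66 and 2.88 in control and 3.61, 3.44 and 4.28 in AOM/DSS, without overlap. Its adjusted p was 0.053 without AOM/DSS replicate 3, 0.06 without control replicate 1 and 0.051 under median scaling, where that of Psma4 was 0.18. Psma4 was called only as long as neither an AOM/DSS array nor control replicate 1 or 2 was left out (adjusted p = 0.052 to 0.12). After AOM the structural beta subunits Psmb3 (1.11 ± 0.25, adjusted p = 0.013) and Psmb4 (0.82 ± 0.24, adjusted p = 0.028) and the alpha subunit Psma7 (0.88 ± 0.25, adjusted p = 0.026) rose. Without AOM replicate 2 the calls of Psmb3, Psmb5 and Psmb7 after AOM were lost (1.06, 1.06 and 0.84, adjusted p = 0.05, 0.051 and 0.058), and that of Psmb7 also without control replicate 1 (0.80, adjusted p = 0.056). The Psma7 call was lost without AOM replicate 2 or 3 or any control array (adjusted p = 0.053 to 0.084).

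Psmb3 measured 5.56, 5.60 and 5.27 in control, 6.67, 6.68 and 6.40 in AOM, 5.39, 6.32 and 6.19 in DSS, and 5.64, 5.66 and 5.89 in AOM/DSS. The tumour arrays thus sat just above control and below AOM. Against AOM, Psmb3 (-0.85, adjusted p = 0.025) and Psmb4 (-0.69, adjusted p = 0.043) fell in AOM/DSS. Both calls depended on the scaling and the arrays. Under quantile normalization the differences were -0.22 and -0.04. The Psmb3 call was lost without AOM replicate 1 or 2 or AOM/DSS replicate 1 or 2 (adjusted p = 0.068 to 0.078), and the Psmb4 call without any one of 8 arrays (adjusted p = 0.055 to 0.12). A second Psmb3 probe differed by 0.70 between AOM/DSS and control, where the brighter one differed by 0.26. Psma2 was the least changed core subunit over the 4 groups (adjusted p of the F test = 0.37), with 5.57 to 5.63 in control and 5.64 to 6.24 in AOM/DSS. Psma5, Psma6, Psmb1 and Psmb2 also passed in no comparison with control, with differences of 0.19 to 0.70 in AOM/DSS and 0.25 to 0.62 in AOM.

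In the regulatory particle the subunits that rose in tumours were led by Psmd1, a large scaffold that binds ubiquitin receptors, at 1.14 ± 0.26 (2.20-fold, adjusted p = 0.0075). Psmd1 measured 1.12, 1.23 and 1.30 in control, 1.07, 1.93 and 1.99 in AOM, 1.25, 1.37 and 1.54 in DSS, and 2.24, 2.15 and 2.65 in AOM/DSS. The tumour arrays were above all others, and AOM replicate 1 lay with the controls. Psmd14, the deubiquitinase that strips ubiquitin from substrates, measured 2.59, 2.85 and 2.91 in control and 3.69, 3.54 and 4.20 in AOM/DSS, and rose by 1.03 ± 0.24 (adjusted p = 0.0087). The ATPase Psmc2 rose by 1.03 ± 0.22 (adjusted p = 0.0049) and the scaffold subunit Psmd6 by 0.99 ± 0.21 (adjusted p = 0.0057). These 4 calls held with any single array left out, and under median scaling with adjusted p values of 0.039 to 0.048. Psmd12 rose by 0.84, Psmc3 by 0.80, Psmc4 by 0.72, Psmd7 by 0.65 and Psmc1 by 0.60 (adjusted p = 0.017 to 0.037). Under median scaling these 5 were not called (0.45 to 0.68, adjusted p = 0.11 to 0.23). The Psmd12 call was lost without AOM/DSS replicate 3 (0.65, adjusted p = 0.07) and without control replicate 1 or 2 (0.80 and 0.82, adjusted p = 0.061 and 0.053).

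After AOM the largest rises in the particle were those of Psmd13, Psmc4, Psmd3, Psmd9 and Psmd4. Psmd13 rose by 1.12 ± 0.25 (adjusted p = 0.013), Psmc4, an ATPase, by 1.09 ± 0.22 (adjusted p = 0.0087), Psmd3 by 1.00 ± 0.23 (adjusted p = 0.013), the assembly factor Psmd9 by 0.97 ± 0.23 (adjusted p = 0.015) and Psmd4, a ubiquitin receptor, by 0.93 ± 0.23 (adjusted p = 0.016). Psmd13 measured 0.24, 0.19 and 0.21 in control, 1.19, 1.27 and 1.52 in AOM, 0.49, 1.32 and 0.88 in DSS, and 0.68, 0.34 and 1.08 in AOM/DSS. Psmd3 measured 4.96, 5.16 and 4.73 in control, 6.06, 5.91 and 5.88 in AOM, 4.94, 5.72 and 5.58 in DSS, and 5.28, 5.43 and 5.39 in AOM/DSS. For both genes every AOM array exceeded every tumour array, but the direct differences of AOM/DSS from AOM did not pass (-0.63, adjusted p = 0.074, and -0.59, adjusted p = 0.065). Psmd9 and Psmd4 lost their calls without AOM replicate 2 (0.86, adjusted p = 0.059, and 0.97, adjusted p = 0.05), and Psmd4 also without control replicate 2 (0.88, adjusted p = 0.053). Psmc3, Psmc2, Psmd7 and Psmc1 rose by 0.89, 0.75, 0.74 and 0.70 after AOM. Psmd5, an assembly factor, was the least changed of the regulatory particle genes (adjusted p of the F test = 0.40).

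Compared directly with AOM, 4 of 49 members were called higher and 5 lower in AOM/DSS (3 and 5 of 48 without Psma8), against 37.1% of all genes called (19.5% higher, 17.7% lower). Beside the genes already given, these were Psmc6, Psme4 and Psmd6 (0.63, adjusted p = 0.041), which rose, and Psme3ip1, which fell (-0.57, adjusted p = 0.034). The Psmd6 call was lost without any one of 7 arrays (adjusted p = 0.053 to 0.14) and the Psme3ip1 call without any one of the 6 AOM and AOM/DSS arrays (adjusted p = 0.063 to 0.095). The count was 3 without AOM replicate 1, 5 without AOM replicate 2, 3 without AOM/DSS replicate 1, 4 without AOM/DSS replicate 2 and 16 without DSS replicate 1, and 15 without the pair of pancreas-rich arrays. Beside the 16 and the 15, 42.7% and 45.3% of all genes were called. With the slide as a block the count was 2, Psmb10 and Psmc6, and under normexp correction it was 0. Under median scaling 3 rose and 15 fell, and under quantile normalization 12 rose and 1 fell, so the balance of directions in this comparison followed the scaling. The median over all genes was -0.36 under median scaling and 0.03 under quantile normalization, and 52.4%, 33.7%, 41.0% and 55.5% of all called genes were higher with the 75th percentile, the median, normexp correction and quantile normalization. In the same order 7041, 7494, 1261 and 6501 genes were called.

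Against DSS, 10 of 49 members were called higher and 1 lower in AOM/DSS (9 and 1 of 48 without Psma8), against 35.9% of all genes called (17.6% higher, 18.3% lower). Regulatory particle subunits made up 6 of the 10 (Psmc6, Psmd1, Psmd14, Psmd6, Psmd12 and Psmc2, 0.70 to 1.17). Psma8, Psme4, Psmg2 and Psmc3ip were the others. The count was 7 without AOM/DSS replicate 1, 5 without AOM/DSS replicate 3 and 4 without DSS replicate 3, and without DSS replicate 1 it was 7 higher and 7 lower, beside 46.8% of all genes called. The 7 lower were Psmb3, Psmb9, Psmb10, Psmd8, Psme2, Psme3 and Psme3ip1. The count was 0 with the slide as a block, where no slide holds both groups, and 2 under normexp correction. It was 3 higher and 2 lower under median scaling, where 35.2% of all called genes were higher against 49.1% with the 75th percentile, and 29 higher and 1 lower under quantile normalization. Among all genes, 6804 were called with the 75th percentile and 1898 under normexp correction. Median scaling called 6313 genes and quantile normalization 6841.

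Psmc6, Psme4, Psma1 and Psmd10 had means below control in AOM and DSS. So did Psme3 (-0.18 and -0.02) and, with the probe used, Psmf1 (-0.03 and -0.11), by less. Another Psmf1 probe, well above background on all 12 arrays, differed by 1.16 in AOM and 0.56 in DSS. The remaining Psmf1 probe, above background on 6 arrays, differed by -0.47 and -1.28. Psmc6, an ATPase of the regulatory particle, measured 4.10, 4.22 and 4.38 in control, 3.28, 3.49 and 3.92 in AOM, 4.21, 3.26 and 3.57 in DSS, and 5.02, 4.74 and 4.79 in AOM/DSS. The AOM arrays lay below all controls and the tumour arrays above all others. Psmc6 rose in AOM/DSS by 1.29 ± 0.27 against AOM (2.44-fold, adjusted p = 0.0079; 1.5 within the shared slide, adjusted p = 0.03 with the block) and by 1.17 ± 0.27 against DSS (adjusted p = 0.0089), with any single array left out as well. Under normexp correction the adjusted p was 0.11 and 0.063. Against control the differences were -0.67 in AOM (adjusted p = 0.073) and 0.62 in AOM/DSS (adjusted p = 0.096).

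Psme4, the nuclear activator PA200, measured 3.87, 4.01 and 3.91 in control, 2.86, 3.77 and 3.56 in AOM, 3.84, 3.11 and 3.55 in DSS, and 4.60, 4.45 and 4.55 in AOM/DSS. Again the tumour arrays were above all others. Psme4 rose by 1.14 ± 0.26 against AOM (adjusted p = 0.011) and by 1.03 ± 0.26 against DSS (adjusted p = 0.014), also with any single array left out. It had an adjusted p of 0.13 and 0.069 under normexp correction, and 2 further Psme4 probes differed by 1.25 and 1.80 against AOM. Psma1, an alpha ring subunit, measured 4.51 to 4.64 in control, 3.47 to 4.36 in AOM, 3.91 to 4.22 in DSS and 4.41 to 5.05 in AOM/DSS, and passed in no comparison (-0.53 in AOM and -0.52 in DSS against control). The assembly factor Psmd10, also called gankyrin, differed by -0.38 in AOM and -0.27 in DSS against control, without passing. AOM replicate 1 was the lowest AOM array for Psma1, Psmc6, Psme4 and Psmd10.

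**Figure D5:**
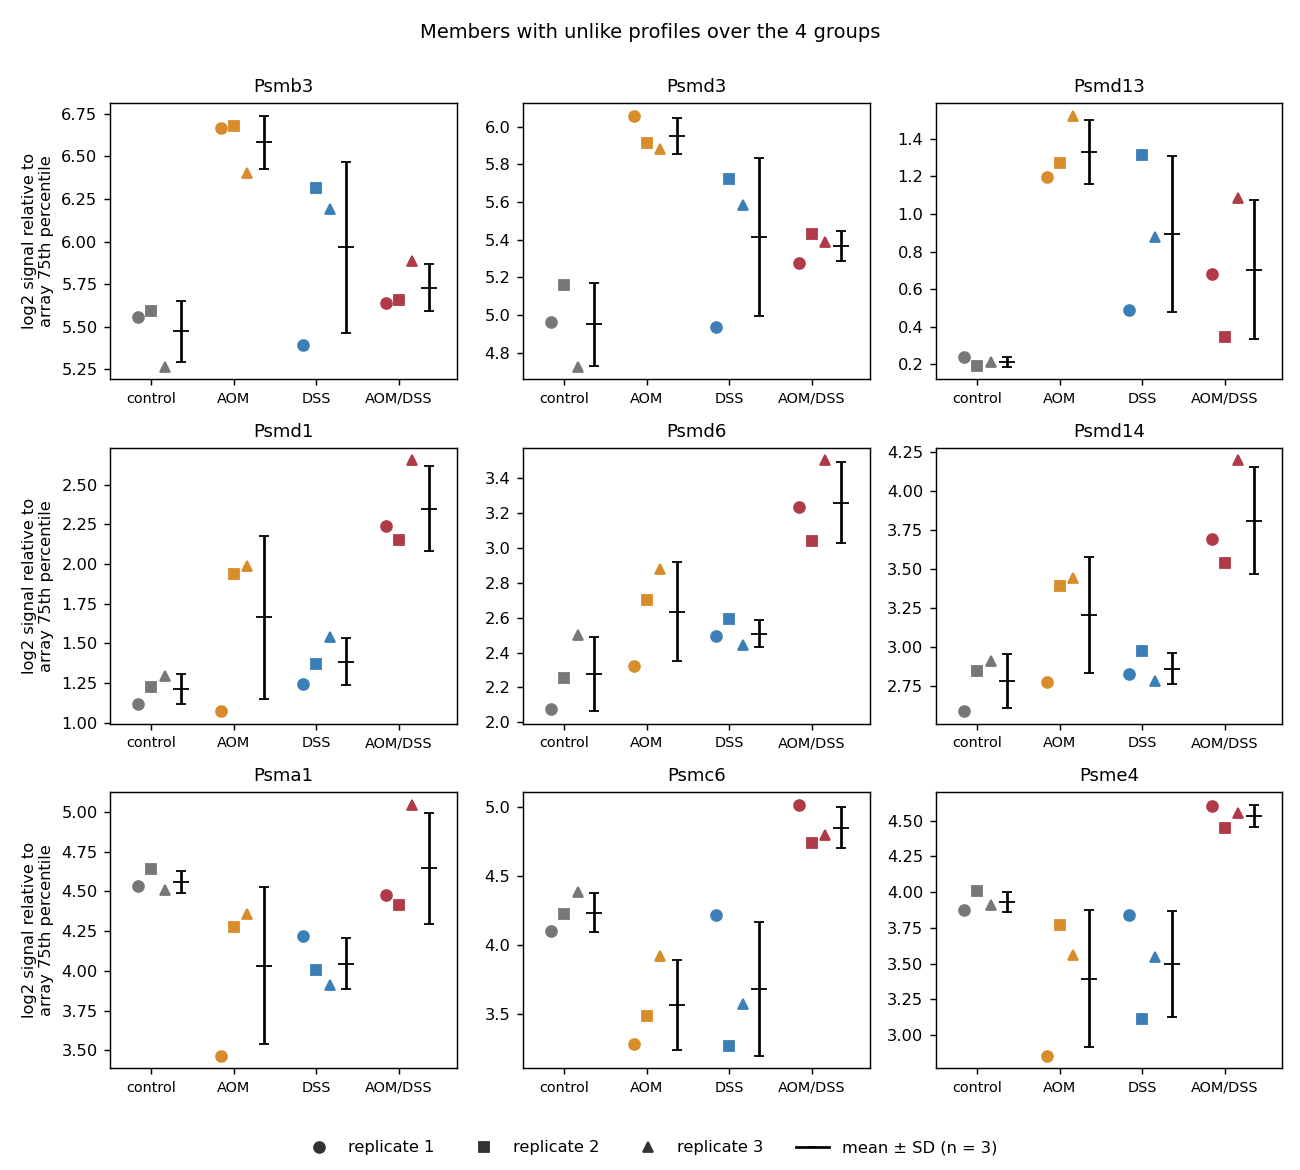
Log2 signal relative to the array's 75th percentile (vertical axis, a separate scale in each panel) of 9 members on each array, by group, with mean and SD of 3 arrays. Psmb3, Psmd3 and Psmd13 (top) have their highest mean in AOM and have DSS replicate 1 lowest of the DSS arrays, Psmd1, Psmd6 and Psmd14 (middle) have theirs in AOM/DSS, and the AOM arrays of Psma1, Psmc6 and Psme4 (bottom) lie below the controls.

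The remaining activators and the inhibitor did not pass in any comparison with all arrays. Psme1 and Psme2, which form the interferon-inducible PA28 cap, measured 4.96 to 5.29 and 5.52 to 6.27 in AOM/DSS, against 4.88 to 5.57 and 5.82 to 6.48 in control. The AOM/DSS values overlapped the control values for both. Against AOM they differed by -0.52 and -0.57 (adjusted p = 0.12 for each), and under quantile normalization by small positive values of up to 0.07. Psme3, the nuclear PA28 gamma, differed by -0.41 (adjusted p = 0.26) and Psmf1, the inhibitor PI31, by -0.41 (adjusted p = 0.13) in AOM/DSS against control. Probes of Psmf1 differed in sign in this comparison. Without DSS replicate 1, Psme2 (-0.77, adjusted p = 0.049) and Psme3 (-0.65, adjusted p = 0.05) fell in AOM/DSS against DSS.

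Of the chaperones that pair and order the alpha ring, Psmg2 rose in AOM/DSS by 0.98 ± 0.30 (adjusted p = 0.028), from 0.63, 1.47 and 1.41 in control to 1.94, 2.23 and 2.29. The call was lost without control replicate 1 (0.71, adjusted p = 0.11) and without AOM/DSS replicate 2 or 3 (0.94 and 0.92), and under median scaling (0.83, adjusted p = 0.096). After AOM, Psmg3 (0.97 ± 0.26, adjusted p = 0.02) and Psmg4 (0.89 ± 0.29, adjusted p = 0.042) rose. Psmg3 lost its call without AOM replicate 2 (1.03, adjusted p = 0.055) or control replicate 1 (1.01, adjusted p = 0.054). Psmg4 lost its call with any one of 9 arrays left out. Psmg1 differed by 0.64 in AOM and 0.58 in AOM/DSS (adjusted p = 0.078 and 0.10). Pomp, which matures the core and is not matched by the pattern, differed by 0.50 in AOM and 0.28 in AOM/DSS (adjusted p = 0.10 and 0.37).

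Psma8, the testis-specific alpha subunit, exceeded background clearly on no arrays but the 3 of AOM/DSS, at -4.14, -3.58 and -3.71. Limits set from the lowest signals that counted as above background averaged -3.93 in control, -4.46 in AOM and -4.09 in DSS. AOM/DSS replicate 1, at -4.14, lay below the control and DSS limits, so no smallest fold is given for Psma8. On the other 9 arrays its signal was not well above background, so it entered the test only through the group where it is high, and its fitted differences and calls carry no weight. The fitted values turned sign under normexp correction (-1.22 against control and -0.87 against DSS). Psmc3ip, no subunit, rose in AOM/DSS by 1.98 ± 0.43 (adjusted p = 0.006) and after AOM by 1.67 ± 0.43 (adjusted p = 0.019), the latter lost without AOM replicate 3 or control replicate 1 or 2 (adjusted p = 0.053 to 0.069). Under normexp correction these differences were 0.40 and 0.17, neither called.

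Of 26 tested genes for ubiquitin and proteasome-associated factors, 5 rose and 4 fell in AOM/DSS against control, and 5 rose and 2 fell after AOM. These are 34.6% and 26.9% of the list, beside 34.7% and 32.4% of all genes. The proteasomal deubiquitinase Uchl5 rose in AOM/DSS (0.96, adjusted p = 0.016), as did the ubiquilins Ubqln1 and Ubqln2. Rps27a, which encodes ubiquitin fused to a ribosomal protein, fell (-0.69, adjusted p = 0.045), with no value on AOM/DSS replicate 3 and so 2 tumour arrays in the fit. Ecpas, an adaptor that binds proteasomes, fell in AOM/DSS (-1.07) and after AOM (-1.69, adjusted p = 0.0051), and the ubiquitin ligase Ube3a fell after AOM (-1.51).

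Around Nfe2l1, 2 of 10 tested genes rose and 2 fell in AOM/DSS against control, 40% called beside 34.7% of all genes. After AOM the shares were 30% and 32.4%. Nfe2l1 itself measured 3.62, 3.62 and 3.33 in control and 3.08, 3.08 and 2.98 in AOM/DSS, a difference of -0.48 with an adjusted p of 0.094. Its partner Mafg rose by 2.00 (adjusted p = 0.00016) and the heme oxygenase Hmox1 by 2.88 (adjusted p = 0.0093). The partner Mafk fell (-0.90), as did Ngly1, the glycanase that processes the Nfe2l1 protein (-0.83). After AOM, Mafg (0.96) and Nqo1 (1.51) rose, Ngly1 fell (-1.29), and Nfe2l1 differed by 0.02.

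Of 11 proliferation genes, 9 rose in AOM/DSS against control (81.8%, beside 34.7% of all genes called, median 2.02). After AOM 10 rose (90.9%, beside 32.4%, median 1.66). The median level by array was 1.62 to 2.44 in AOM/DSS, 1.85 to 2.31 in AOM and -0.36 to 0.77 in control. In DSS it was 0.67 in replicate 1, the array at control level for Psmb5, and 1.65 and 1.31 in replicates 2 and 3. The part of proliferation, epithelial content and RNA from other cells in the differences of the proteasome genes was not tested.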

How the data were processed

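RNA from 12 samples was hybridised to 1-colour Agilent arrays, and the deposited intensity values are background-subtracted processed signals written by Agilent Feature Extraction 10.7, per the submitters' processing notes and the file headers. The authors' series matrix of log2 values was deposited too. It has a median of 6.17 on every array and was used as an alternative; the sources used here do not give the authors' normalisation. Control spots and outlier spots were left out, spots of a probe averaged, and log2 signals set relative to each array's 75th percentile. RefSeq accessions named 27198 of 41174 probes with 1 symbol, and 13976 had none. A probe was kept if well above background on all arrays of a group, and the brightest probe stood for a gene. A gene without a symbol was kept under its accession, a choice made after the overall counts of a first fit had been seen.

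All 12 arrays were fitted together in limma 3.58.1 (R 4.3.3) with 6 comparisons between the 4 groups, with Benjamini-Hochberg adjustment across the 18957 genes tested. "Called" means an adjusted p under 0.05. The script was tested on simulated data. Alternatives covered background correction (normexp, offset 50), median and quantile scaling, filters, averaging probes, slide and replicate blocks, each comparison fitted alone and leaving out each array; leaving out 2 pancreas-rich arrays was added after seeing the data. Always named were the catalytic subunits, activators, chaperones and Psma8, and in each comparison up to 5 called members per direction in each subgroup. Some genes of these lists are not reported here. The members and lists were chosen with earlier results of these data known. Replicate numbers were not treated as pairs, since correlations of same-numbered arrays ran from -0.27 to 0.25.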

Additional observations from a re-analysis of the deposited data

How the results depend on the processing

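Of 1077 values of the 45 named called differences under the alternatives, 1075 kept their direction. The 2 that reversed were Psma8 under normexp correction (-1.22 against control and -0.87 against DSS). This count carries little weight, because the differences were chosen for being called in these data. The estimate itself did not change with the replicate block, with a comparison fitted alone, or without an array of a group outside the comparison. Calls were lost more often. Under normexp correction 24 of the 45 differences stayed called, and 19 kept their direction but were not called. Under median scaling 32 stayed called and 13 did not. For the counts of members called, in the order AOM/DSS against control, AOM/DSS against AOM, AOM/DSS against DSS and any group difference, the values were 17, 9, 11 and 25. Each of these counts includes Psma8, whose calls carry no weight. Beside these counts, 6581, 7041, 6804 and 9981 of all genes were called. Median scaling gave 7, 18, 5 and 14, beside 5810, 7494, 6313 and 9553 of all genes. Normexp correction gave 0 in AOM/DSS against AOM, 2 against DSS and 10 for any group difference. There 1261, 1898 and 2460 of all genes were called. Quantile normalization and the series matrix values each gave 33 in AOM/DSS against control and 30 against DSS. Under quantile normalization 7001 and 6841 of all genes were called in these comparisons. The slide block gave 8, 2, 0 and 3, and 0 in AOM against control (18 without it), where no slide holds both groups. Without the 2 pancreas-rich arrays the counts were 4 in DSS against control and 15 in AOM/DSS against AOM, beside 22.6% and 45.3% of all genes. Leaving out single arrays gave 8 to 20 calls in AOM/DSS against control, 5 to 22 in AOM against control, 0 to 10 in DSS against control, 3 to 16 in AOM/DSS against AOM, 4 to 14 in AOM/DSS against DSS, 0 to 0 in DSS against AOM, and 11 to 30 for any group difference. The fit with the replicate number as a block, although the numbers do not pair the samples, gave 16, 7, 12 and 24, and 18 in AOM against control. Counts over all genes are not given here for the slide block, the replicate block or single arrays other than DSS replicate 1. Only differences called in the fit as described were followed gene by gene. With 3 arrays a group, a difference that did not pass is not shown to be absent. For Psma8 and Psmb11 the limit is signal over background.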
